A study of Mus musculus with 7 samples.

Results

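The mRNAs of 8 proteins that themselves govern how long other mRNAs last, or how well they are translated, were followed through an immunoprecipitation of HuR. They are Msi2 of the Musashi family, Igf2bp2 and Igf2bp3, Zfp36l1 and Zfp36l2, the Pumilio gene Pum2, and the paired genes Tia1 and Tial1. They were chosen by gene name, and every site listed under one of these names was taken. Whether a site lies in an exon, an intron or an untranslated region was not determined, so it need not lie in the mature mRNA. Of the 8 genes, 6 had a site, with 17 sites among 18072 in all, and 6277 genes had a site altogether. Igf2bp3 and Tial1 had no listed site.

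The cells were CT26.WT, a mouse colon carcinoma line, labelled wild type, grown in ordinary serum-containing medium and given no other agent. Endogenous HuR was pulled down with an antibody in 3 immunoprecipitations, and the RNA that came with it was sequenced. From the same untreated line the series has 3 control samples pulled down with IgG and 1 sample of total RNA taken as input, none of which was analysed here. It is not stated whether the 3 HuR samples came from separate cultures, and all come from a cultured tumour line rather than from intestine.

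HuR, the product of Elavl1, binds AU-rich and U-rich stretches of mRNA and is best known for protecting its targets from decay. The proteins followed here act on overlapping sets of mRNAs, some in the same direction and some against it. Zfp36l1 and Zfp36l2 are zinc finger proteins that bind AU-rich elements and bring in deadenylases, Pumilio proteins recruit the same kind of enzyme to their own element, and Igf2bp proteins shield their targets. Msi2, Tia1 and Tial1 mainly adjust translation, and Tia1 and Tial1 also take part in splicing and in stress granules.

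The authors called sites in each HuR sample on its own, giving lists of 4722, 5384 and 7966 sites for immunoprecipitations 1, 2 and 3. For each site the files give a fold enrichment, the ratio that the caller found between signal and an unnamed control, and a score, equal to the negative log10 of its p multiplied by 10. The lowest scores, near 50, correspond to a p of 1e-05. Both are the authors' own values for a site in 1 library, with no replicate error, and read depth is unknown. The median fold was 7.21, 6.41 and 8.38 in lists 1, 2 and 3, and the median score was 87.3, 79.4 and 83.8. Folds repeat, as list 1 holds 923 different values over its 4722 sites. Of 5 epithelial marker genes looked up, 2 had a site, Krt20 in 2 lists and Krt18 in 1. So had 3 of 6 markers of other cell types (Zeb1 in 2 lists, Alb and Hbb-bs in 1 each). Epcam, Cdh1, Krt8, Vim, Ptprc and Pecam1 had none. The lists carry no expression level, so the labelled cell type could not be checked with them.

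A site in all 3 lists was found for 4 of the 8 genes, namely Msi2, Igf2bp2, Zfp36l2 and Pum2. Zfp36l1 had a site in lists 1 and 2, and Tia1 in list 1 alone. Lists 1, 2 and 3 thus held 6, 5 and 4 of the 6 listed members, where they held 54.5%, 57.8% and 62.8% of all genes with a site. Among all genes with a site, 19.9% were in all 3 lists, against 4 of the 6 listed members (66.7%), and 55.2% were in 2 or more, against 5 of the 6. At a score of at least 70, 2 of the 5 members still listed were in all lists, Msi2 and Zfp36l2, against 11.5% of all genes. With lists cut to equal length it was 2 of 6, against 15.2%. The members were named with results of these data known, so no test was made of this difference. Their sites were of ordinary strength. The fold lay above the median of its own list at 7 of the 17 sites, where 49.7% of all sites do, and the score lay above the median of its list at 11 of the 17. A score of at least 70, a caller p of 1e-07, was reached by 11 of the 17, as by 65.2% of all sites. The caller's false discovery rate, read as percent, was less strict, running from 9.34 to 23.15% over the 17 sites. Its median over all sites was 15.5, 13.0 and 9.73% in lists 1, 2 and 3.

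**Figure D1:**
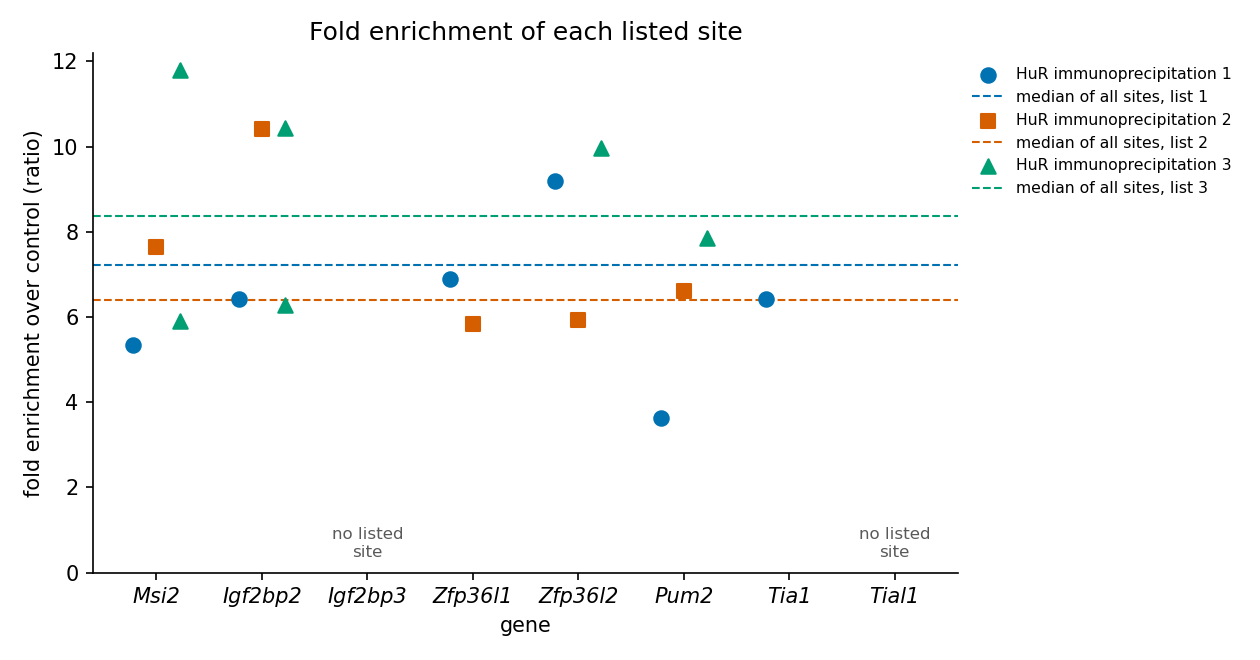
Fold enrichment (ratio over control, linear axis) of every listed site of the 8 genes, with a symbol for each HuR immunoprecipitation and a dashed line at the median of all sites in its list. Points run from 3.64 at Pum2 to 11.79 at Msi2 and fall on both sides of the medians, and Igf2bp3 and Tial1 have none.

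Zfp36l2, the AU-rich element binding decay factor, was the only one of the 8 genes with a position common to all 3 samples. Its only site lay at chr17:84491359-84494584 (mm39) with the same start and end in every list. The site was 3226 bases long, whereas the longest site of any other member was 252 bases. In each list it was among the longest, with a rank by length of 7, 18 and 42 in lists 1, 2 and 3. Its folds were 9.19, 5.93 and 9.97 in lists 1, 2 and 3. Those values were higher than 78.9% and 70.9% of the sites in lists 1 and 3, and higher than 40.9% in list 2.

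The score of the Zfp36l2 site was far apart between samples, at 1515, 131 and 108. By score it ranked 20 in list 1, above 99.6% of that list, and stood above 83.1% of list 2 and 67.2% of list 3. The caller's false discovery rate, read as percent, was 23.15, 12.6 and 9.82% in lists 1, 2 and 3, and in the first of these it exceeded that of 99.6% of sites. The highest score and the highest false discovery rate among the members therefore fell on the same site of the same sample. A position common to all 3 lists was found for 1 of the 4 members with a site in every list, and for 15.5% of all genes with a site in every list. Of the 195 positions in all lists, 140 had identical bounds throughout, and 1 was longer than that of Zfp36l2.

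The nearest site under another name lay 3701 bases from the Zfp36l2 site. It was listed for Thada at chr17:84498286-84499759 in list 1 alone, with a fold of 16.3 and a score of 729. No site of another gene lay within 10 kb of any other member site. The strand of the reads is not given in the files.

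Zfp36l1, the close relative with the same role in decay, also had a single position, at chr12:80159593-80159787. The 195-base site had identical bounds in lists 1 and 2 and no counterpart in list 3, which is the longest list. Its folds were 6.89 and 5.84 in lists 1 and 2, below the median of each list. Its score of 119 in list 1 lay above 71.8% of sites there, and its 68.2 in list 2 above 34.2%. The fold of 6.89 was shared by 118 sites of list 1. Both Zfp36 genes thus had their sites at 1 position each wherever they were listed, unlike Pum2 and Igf2bp2. The lengths of these genes, which limit how far apart sites can lie, were not compared.

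Pum2, the Pumilio repressor, was in all 3 lists at 3 different positions. List 1 had it at chr12:8755933-8756041, list 2 at chr12:8774047-8774179 and list 3 at chr12:8797157-8797294. A promoter annotation places the gene on the plus strand, so the list 1 site lies nearest to its 5′ end. The folds were 3.64, 6.61 and 7.85, and the scores were 132, 51.0 and 113. The list 1 site paired the lowest fold of any member, above 2.73% of its list, with a score above 76.8% of that list. The list 2 site ran the other way, with a fold above 53.1% of its list and a score above 2.38%.

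Igf2bp2, an mRNA-protecting protein of the insulin-like growth factor 2 mRNA-binding family, was in all 3 lists at 4 positions with no overlap between samples. List 2 placed it at chr16:21886893-21887009 with a fold of 10.41 and a score of 146, the highest score of the gene and above 86.8% of that list. List 3 had sites at chr16:21894767-21894895 and chr16:21900484-21900735, with folds of 10.44 and 6.29 and scores of 50.5 and 60.1. List 1 had a site at chr16:21979998-21980200, with a fold of 6.43 and a score of 50.2.

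The Igf2bp2 site of list 1 and the first of list 3 were thus near the lowest score listed, above 0.868% and 0.678% of their lists, and the second of list 3 was above 19.9%. The files assign the list 1 site to another transcript than the remaining 3 sites, the nearest of which lay 79.3 kb away. The promoter annotation gives the gene on the minus strand, which puts the list 1 site nearest to the 5′ end. The fold of 10.41 was shared by 43 sites of list 2, and that of 6.43 by 109 sites of list 1. Igf2bp3, the family member best known from embryonic tissue and tumours, had no listed site.

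Msi2, a translational regulator known from blood and intestinal stem cells, had 4 sites at 3 positions. The position at chr11:88285391-88285505 had identical bounds in lists 2 and 3, with folds of 7.64 and 5.9 and scores of 88.8 and 88.3. List 1 had the gene elsewhere, at chr11:88239610-88239818, with a fold of 5.35 and a score of 97.8. A second list 3 site at chr11:88480881-88480973 had the highest fold of any member, 11.79, above 86.9% of its list, and a score of 116. All 4 sites had scores above the median of their list, which held for no other member listed at more than 1 position. The promoter annotation puts the gene on the minus strand, so the site with the highest fold lies nearest to the 5′ end, 195 kb from the shared position.

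Tia1, which binds U-rich RNA and holds back translation under stress, had 1 site, at chr6:86403549-86403672 in list 1. Its fold of 6.43 was the value also seen at Igf2bp2 and at 109 sites of that list in all. Its score of 55.9 was above 11.2% of the list. Tial1, its paralog with similar binding, had no site. The site numbers in the files run up to 35258, 37141 and 39806, so each list holds only part of the calls. As depth is unknown too, an unlisted gene is not shown to be free of HuR.

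**Figure D2:**
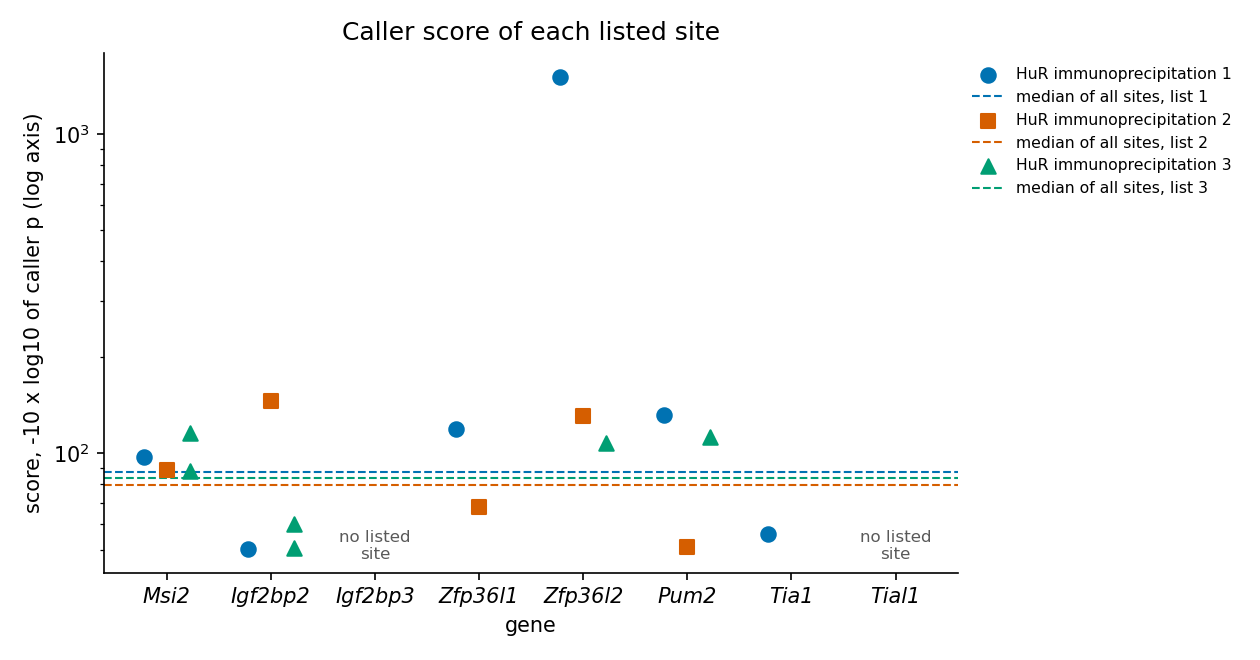
Caller score of every listed site of the 8 genes (negative log10 of the caller's p multiplied by 10, log axis), with a symbol for each immunoprecipitation and a dashed line at the median of each list. The Zfp36l2 site of list 1 stands alone at 1515, and Igf2bp2, Pum2 and Tia1 have sites between 50.2 and 60.1.

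Across the members, the 17 sites fell at 13 positions, of which 3 were listed in 2 or more samples (23.1%), against 16.1% of all 15379 positions, and 1 was listed in all 3, against 1.27%. The shared positions were those of Zfp36l2, Zfp36l1 and Msi2, and each kept the same bounds in the lists that shared it. Identical bounds were common in these lists. They were found at 1743 of all 2286 positions in exactly 2 lists and at 140 of the 195 in all 3. Igf2bp2 and Pum2 were the 2 of 4 genes listed in every sample without a position common to any pair, which was so for 23.3% of all genes in every list. The positions of Msi2 spanned 241 kb, those of Igf2bp2 93.3 kb and those of Pum2 41.4 kb, while the single position of Zfp36l2 spanned 3.23 kb. The median span of genes in all lists was 29.3 kb, and their median number of sites was 5, against 3 or 4 for the members. Gene length was not taken into account.

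**Figure D3:**
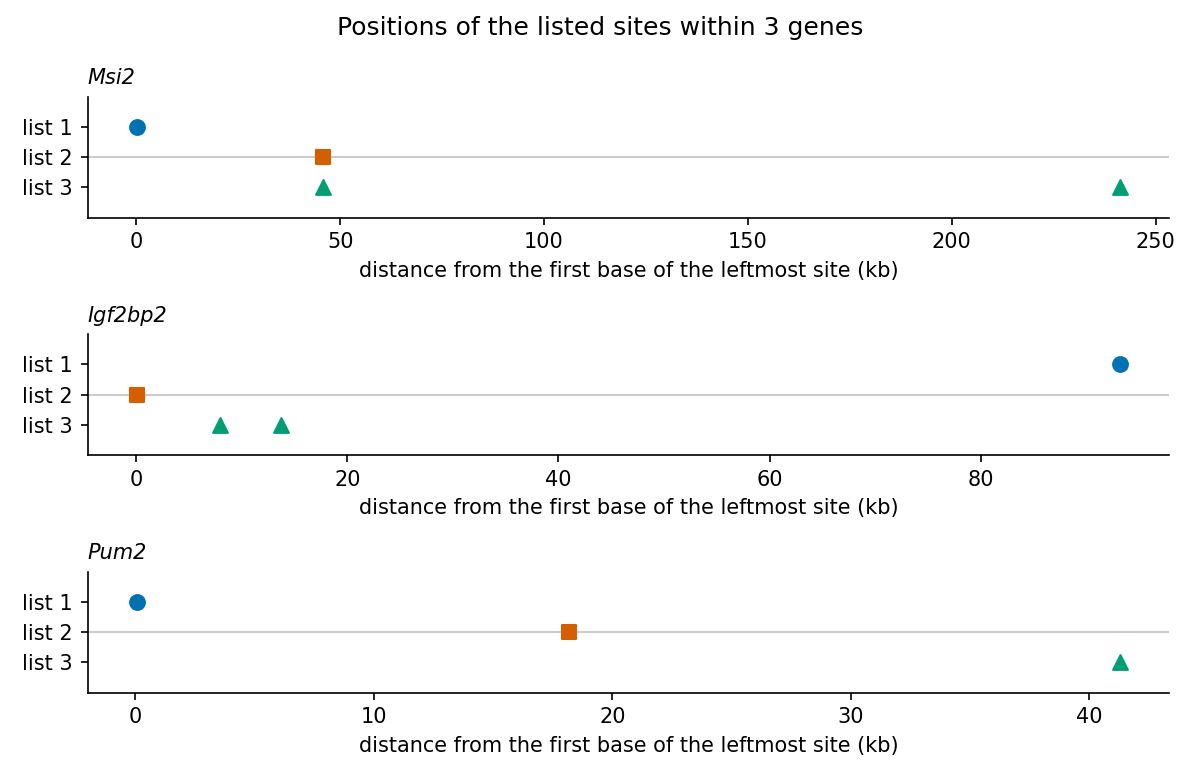
Centres of the listed sites of Msi2, Igf2bp2 and Pum2 in kb from the first base of the leftmost site of each gene, in the direction of rising chromosome position, with a row for each list. The only symbols that line up between rows are those of lists 2 and 3 in Msi2.

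The order of the members by best fold was not the same in the 3 samples. In list 1 it ran from Zfp36l2 at 9.19 through Zfp36l1 at 6.89, Igf2bp2 and Tia1 at 6.43 and Msi2 at 5.35 to Pum2 at 3.64. In list 2 Igf2bp2 came first at 10.41, followed by Msi2 at 7.64, Pum2 at 6.61, Zfp36l2 at 5.93 and Zfp36l1 at 5.84. In list 3 the order was Msi2 at 11.79, Igf2bp2 at 10.44, Zfp36l2 at 9.97 and Pum2 at 7.85. Among the 4 genes listed in every sample, Msi2 and Igf2bp2 each stood above Pum2 in all 3 lists, and the other 4 of the 6 pairs changed order between lists. In list 3, however, Msi2 and Igf2bp2 had 2 sites each and Pum2 had 1. Their other list 3 sites, at 5.9 and 6.29, lay below the 7.85 of Pum2. The Igf2bp2 site at 10.44 had a score of 50.5, above 0.678% of that list. The median fold over all member sites was 6.43, 6.61 and 8.91 in lists 1, 2 and 3, beside 7.21, 6.41 and 8.38 for all sites.

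Close relatives of the members were also listed unevenly. Msi1, the paralog of Msi2, had a 931-base site in list 1 alone, at chr5:115592362-115593292. Its fold there was 16.99 and its score 315, both higher than those of Msi2 in that list. Igf2bp1 had folds of 5.53 in list 1 and of 4.67 and 8.83 in list 2, at 3 separate positions. Zfp36, the founding gene of the Zfp36 family, had no listed site. Elavl1 itself was in every list, at a position shared by lists 2 and 3 and another seen in list 1.

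A wider list of 45 other RNA-binding regulators of mRNA stability or translation gave 28 genes with a site and 17 without. In all 3 lists were 7 of the 28 (25%), beside 19.9% of all genes with a site, while 16 were in exactly 2 lists and 5 in exactly 1. Among the 7 were Elavl1, Celf2, Rc3h1, Rc3h2, Pcbp2 and Cpeb2. Rc3h1 and Rc3h2 encode Roquin proteins, which bring about decay through stem-loops, and had best folds of 9.64, 6.73 and 16.5 and of 10.6, 6.3 and 14.4 in lists 1, 2 and 3. Cpeb2, a cytoplasmic polyadenylation element binding protein gene, reached 8.26, 9.61 and 13.2. Celf2, whose product binds GU-rich elements, reached 6.51, 7.35 and 9.39, and the poly(C)-binding protein gene Pcbp2 reached 5.76, 6.52 and 9.54. Genes without a site included Khsrp, Qki, Fmr1 and Stau1.

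**Figure D4:**
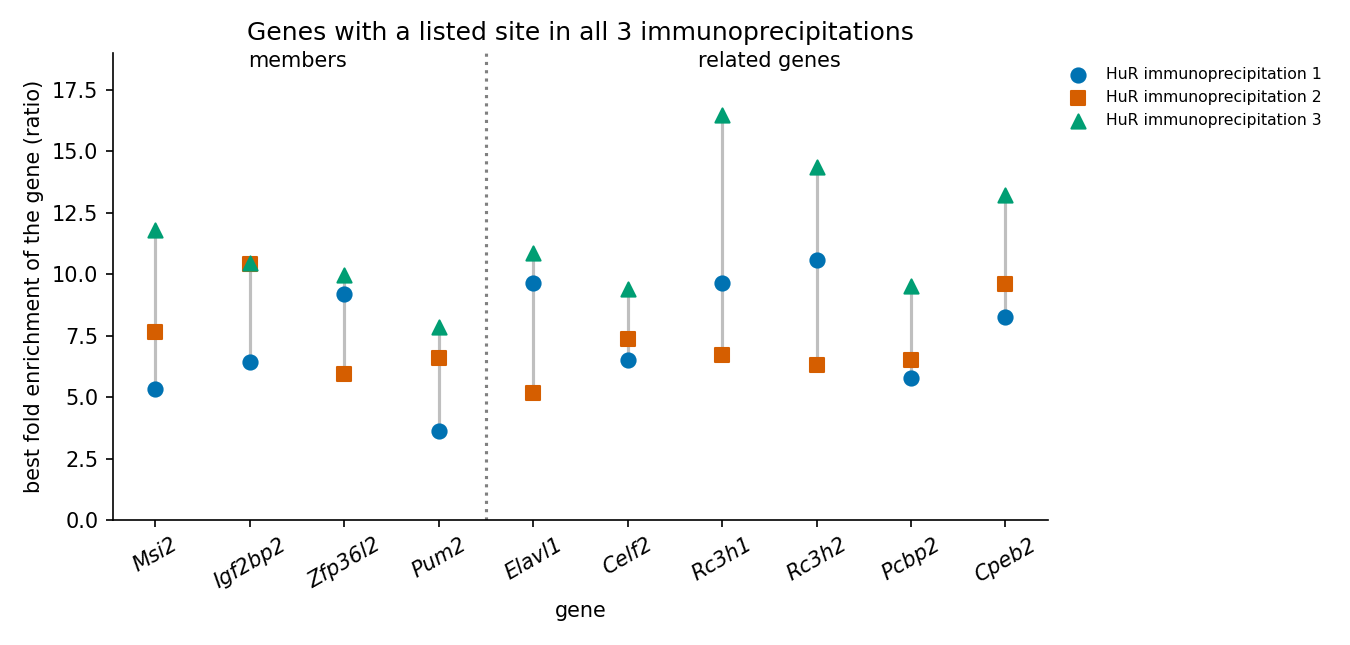
Best fold enrichment (ratio, linear axis) in each immunoprecipitation for the 4 members and 6 of the related genes listed in all 3 samples, joined by a line from the lowest to the highest of the 3 values. The value of list 3 is the highest for all 10 genes, as it is for 64.3% of all genes in every list, and list 3 has the highest median over all its sites, 8.38.

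The genes whose best folds in the 3 lists were nearest to those of each member were sought among the other 1247 genes in all lists, by distance on the log2 scale over 3 values. Nearest to Zfp36l2 was Arhgef2, a guanine nucleotide exchange factor gene, with 9.19, 6.01 and 10.45. Nearest to Msi2 was Mtx3 with 5.51, 8.01 and 11.6, and nearest to Igf2bp2 was Scfd1, a gene of transport from the endoplasmic reticulum, with 6.81, 10.01 and 10.3. Nearest to Pum2 was Ticrr, a replication initiation gene, with 3.57, 7.21 and 7.61. The distances were 0.0705, 0.0834, 0.102 and 0.136 in that order. With 3 values a gene and folds that repeat, many genes lie close together.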

How the data were processed

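RIP-seq of 3 HuR immunoprecipitations was analysed. The submitters' processing notes name build mm39 and the tools FastQC, HISAT2 2.0.4, STAR and cutadapt 1.9.3, in no stated order. Site names carry the prefix of the MACS caller; for its version, its settings and its control, nothing is given in the sources used here. The deposited fold is the caller's ratio, the deposited score is minus 10 times log10 of its p, and the deposited FDR was read as percent from its range. Starts are printed counted from 1.

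Sites were matched by the files' gene names with Python 3.11.15 and pandas 2.3.3. All 8 names are in RefSeq (GRCm38.p6), used for names only. Strands were taken from a separate promoter annotation, which gave none for Zfp36l2. Sites overlapping by at least 1 base between lists were joined into a position; this step was tested on simulated intervals. No test was run: the lists hold no value per IgG or input library, and members and gene lists were chosen with earlier results of these data known. The rule for named genes was all members, 5 relatives, the related genes in all lists, and the 1 nearest gene to each member in all lists. Alternatives were a score of at least 70, a fold of at least 5, equal list lengths, 50% overlap, best sites only, and leaving out each sample. Sequences of the sites were not analysed here, and 1 related gene is counted but not reported by name.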

Additional observations from a re-analysis of the deposited data

How the results depend on the processing

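No paired analysis was possible because IgG samples have no values in the lists. A score of at least 70 (a caller p of 1e-07) left 2 members in all 3 lists, Msi2 and Zfp36l2, and 11 member sites; 11.5% of all genes with a site were then in all lists. Cutting each list to its 4722 highest scores also left 2, again Msi2 and Zfp36l2, against 15.2% of all genes. Igf2bp2 in lists 1 and 3 and Pum2 in list 2 rest on sites with a score under 70. A fold of at least 5 left 3, without Pum2, against 16.4%. With each HuR sample left out in turn there were 4 to 5 members in both remaining lists (against 34.7 to 42.1% of all genes with a site), 5 to 6 members with a site, 11 to 12 member sites (11 without sample 1 or 3), 1 to 2 positions shared by the remaining pair and 10 to 15 related genes in both (15 without sample 1, 12 without sample 3), as a pair asks less than 3 lists. Without immunoprecipitation 2 the Zfp36l2 position was the 1 that remained shared. Of 34 alternatives, 26 stayed within 1.5 times of the main count or within the SD of the list medians, 1.38. Some of the 26 could not move, so the tally is no measure of stability. Lists 1 and 2 have a single site for each member they hold, so best sites gave the same medians. The 3 shared positions have identical bounds, so 50% overlap had to keep them. With a sample left out, the 4 members in all 3 lists had to stay. The sequence of the sites and the members' proteins were not described, since no genome of the files' build and no protein table was used here. Read depth is unknown, which limits what a missing site can show.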

Other observations

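These annotations were picked after values were seen, and no test was made on them. The files annotate 7 of the listed genes with AU-rich element binding, the activity for which HuR, Zfp36l1, Zfp36l2 and Tia1 are known. In all 3 lists were 4 of the 7 (57.1%, against 19.9% of all genes with a site): Zfp36l2, Elavl1, Apobec1 and Nudt21. Apobec1, which encodes a cytidine deaminase that edits Apob mRNA in the intestine, had best folds of 4.41, 7.21 and 11.6 in lists 1, 2 and 3. Nudt21, which encodes a subunit of the cleavage factor that helps choose polyadenylation sites, had 5.52, 3.67 and 6.39. Exosc9, an exosome subunit gene, was in list 3 alone with a fold of 7.37.

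The annotation for binding of mRNA 3′ untranslated regions, carried by Igf2bp2, Zfp36l1, Zfp36l2 and Pum2, covered 28 listed genes, of which 8 (28.6%) were in all lists. Without the members it was 5 of 24. The annotation for the cytoplasmic stress granule, carried by Pum2 and Tia1, covered 21, of which 6 (28.6%) were in all lists. Without these members it was 5 of 19. Among the 5 were Ddx6, a decay-associated helicase gene, with 5.59, 6.49 and 10.3, and Atxn2 with 9.1, 11.7 and 16.9. The broad annotation for poly(A) RNA binding, which all 6 listed members carry, covered 575 genes, of which 20.5% were in all lists, close to the 19.9% of all genes with a site.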
